A study of Canis lupus familiaris with 58 samples.

Results

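Expression of 9 genes that rejoin and signal DNA double-strand breaks was followed across 58 B-cell lymphomas of pet dogs. The genes were XRCC4, XRCC5, XRCC6, LIG4, PRKDC, DCLRE1C, TP53BP1, RNF8 and ATM, taken by symbol and not by their values. They were 9 of the 15115 genes that the array's annotation names, and they had 21 of its 43035 probe sets. Each gene was read from its probe set with the highest mean, and the rest served as a check. All tumours were sampled before treatment from client-owned dogs, and B-cell identity had been set by flow cytometry, immunohistochemistry or both. The specimen was lymph node tissue in 39 dogs, with a diagnosis of diffuse large B-cell lymphoma (DLBCL) in 32 and marginal zone lymphoma (MZL) in 7, and a fine needle aspirate with unknown diagnosis in 19. The labels give the immunoglobulin heavy-chain variable (IGHV) status as static in 26 dogs, ongoing in 27 and ND, which is not explained, in 5. Static status was held by 19 lymph node and 7 aspirate samples, ongoing status by 16 and 11. No healthy tissue was used here, and the age, breed and therapy of the dogs are not given in the sources used here.

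Class switching replaces the constant region of an antibody by cutting the heavy-chain locus at switch regions and joining the distant ends. The cuts begin with deamination by AID, and most are closed by classical end joining. In that pathway the Ku heterodimer, XRCC6 with XRCC5, encircles the ends and recruits the kinase encoded by PRKDC. The Artemis nuclease, encoded by DCLRE1C, trims ends that cannot be joined directly, and the ligase LIG4 with its scaffold XRCC4 seals them. Breaks are signalled by the kinase ATM and the ubiquitin ligase RNF8, and TP53BP1 then protects the ends from resection. The same machinery serves V(D)J recombination and repair of breaks in any dividing cell. Static and ongoing are usually said of somatic hypermutation of the IGHV genes, which shares AID with class switching. No probe set read the switch junctions, so the values below are transcript levels of the machinery.

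Values are log2 expression as deposited, so a difference of 1 is a doubling on the array's scale, and levels of different probe sets are not compared. Array medians lay between 7.08 and 7.21. An array's correlation with the remaining arrays averaged 0.972 in the median case, and the lowest averages, 0.940 and 0.952, were those of an ongoing and a static aspirate. The 3′ minus 5′ difference of the control transcripts, a sign of RNA degradation, was 3.23 in a static lymph node sample and 2.28 in the same ongoing aspirate, against at most 1.19 in the others. The means of 7 B-cell marker genes lay between 9.01 and 10.90 in every tumour. Because tissue was analysed in bulk, fewer cells of a type and less RNA per cell cannot be told apart.

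XRCC4 varied most of the 9 genes, with levels from 6.70 through a median of 8.30 to 9.26 and an SD of 0.62 over the 58 dogs, and 92.6% of all genes had a lower SD. LIG4, PRKDC and DCLRE1C followed with SDs of 0.48, 0.44 and 0.43, above those of 84.8%, 81.5% and 80.7% of genes. XRCC5, RNF8, TP53BP1 and XRCC6 lay near the middle of the array, with SDs of 0.28, 0.27, 0.25 and 0.21. The ATM probe set varied least, from 7.35 to 8.12 with an SD of 0.14, and only 9.20% of genes had a lower SD. This order holds for the 1 probe set read per gene. The second ATM probe set had an SD of 0.38. The other XRCC6 probe sets had SDs of up to 0.45, and the other PRKDC probe sets SDs from 0.34 to 0.44.

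**Figure D1:**
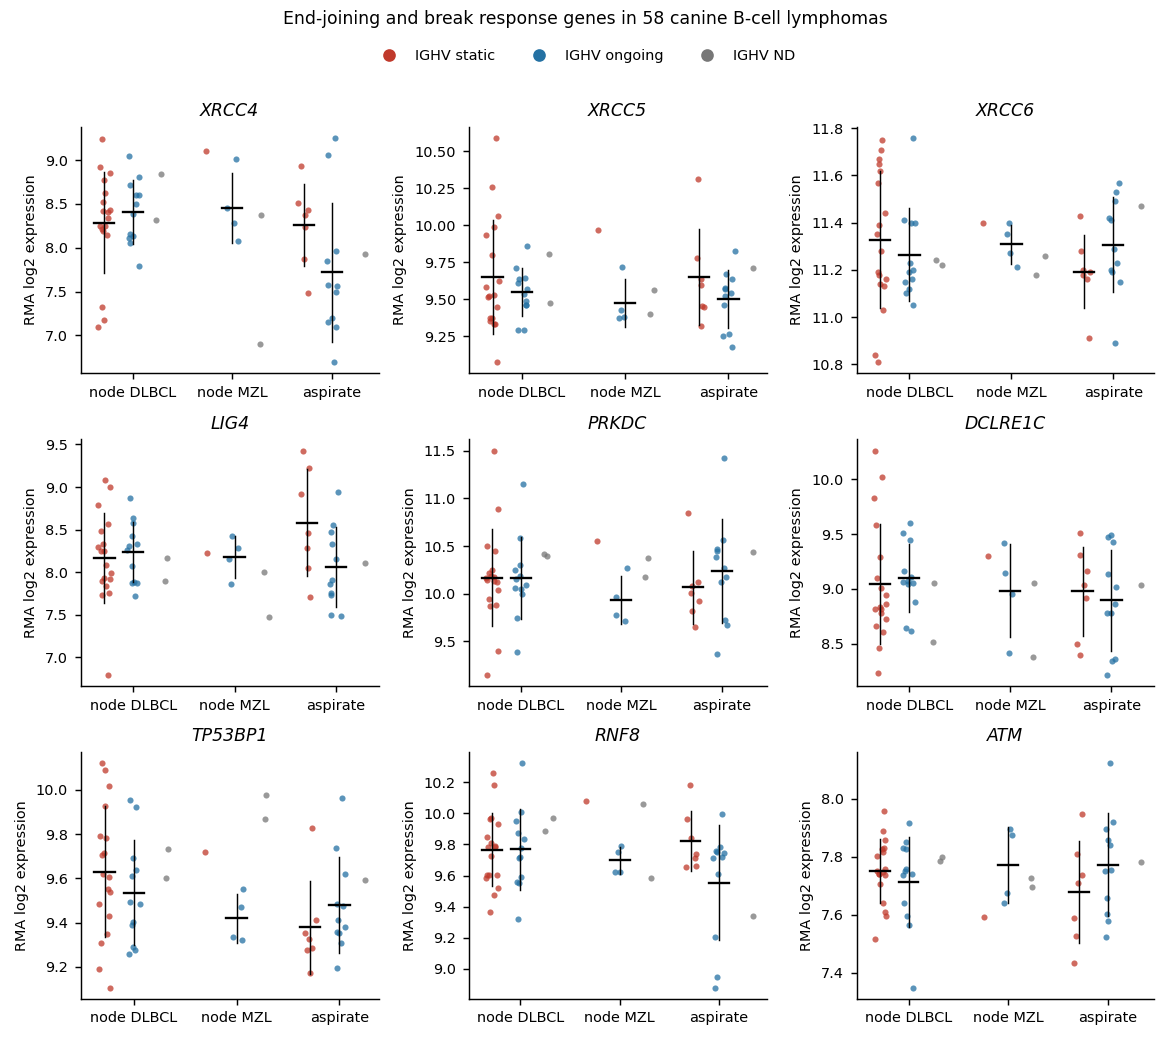
Log2 expression (vertical axes) of the 9 genes, 1 point per dog, by specimen and diagnosis on the horizontal axis and by IGHV status in colour. Bars are the mean and SD of groups of 4 or more static or ongoing dogs. Static and ongoing dogs overlap for every gene, and the spread of XRCC4, from 6.70 to 9.26, is wider than that of ATM, from 7.35 to 8.12.

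The first comparison was between static and ongoing IGHV status in 53 dogs, fitted with limma over all genes with a stratum for lymph node DLBCL, MZL and aspirate. None of the 9 genes passed the adjusted threshold of 0.05, and none had an unadjusted p under 0.05, with limma or a rank-sum test. Of all genes 0% passed after adjustment and 7.13% had an unadjusted p under 0.05. The static minus ongoing difference was above 0 for 7 of the 9 genes, against 47.2% of all genes, with a median of 0.040 against -0.0047 for all genes. On the other side of 0 were PRKDC at -0.017 ± 0.13 (SE) and ATM at -0.022 ± 0.044.

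XRCC5, the larger Ku subunit, had the smallest p of the 9. Its levels ran from 9.08 through a median of 9.56 to 10.59 in 26 static dogs and from 9.18 through 9.54 to 9.86 in 27 ongoing dogs. The medians nearly coincide, and the static group reaches higher at the top. The difference was 0.14 ± 0.081 (SE; limma p = 0.078, adjusted p = 0.719), a fold of 1.11 with a 95% interval of 0.988 to 1.24. The SD was 0.36 in static and 0.17 in ongoing dogs, given as a description. Without the 2 arrays of lowest correlation the XRCC5 difference was 0.10. Its partner XRCC6 differed by 0.0037 ± 0.065, with an interval of -0.13 to 0.13. The other XRCC6 probe sets differed by 0.11 ± 0.13, 0.079 ± 0.081, 0.14 ± 0.10 and -0.0022 ± 0.073 (SE), given as a description.

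RNF8, which ubiquitinates chromatin beside breaks, ran from 9.37 through 9.78 to 10.26 in static and from 8.88 through 9.72 to 10.32 in ongoing dogs. The difference was 0.12 ± 0.076 (SE; limma p = 0.131, adjusted p = 0.753). The proliferation genes moved with it: all 17 measured were above 0, 8 of them at an unadjusted p under 0.05 and 0 after adjustment, and their mean level ran from 10.38 to 11.98 in static and from 9.92 to 11.45 in ongoing dogs. With that mean as a term in the model, the RNF8 difference was 0.016 ± 0.069 and that of XRCC5 was 0.097 ± 0.084. By specimen, RNF8 differed by 0.037 in lymph node samples alone and by 0.27 in aspirates alone. The aspirate medians were close, 9.74 in static and 9.72 in ongoing dogs, while the lowest levels were 9.65 and 8.88. Within aspirates RNF8 correlated at r = -0.60 with the 3′ minus 5′ difference. With that measure as a term, the RNF8 status difference over both specimens was 0.11. Without the 2 arrays of highest 3′ minus 5′ it was 0.082, and the part of this measure was not tested. The proliferation mean averaged 10.99 in static and 10.96 in ongoing lymph node DLBCL, and 11.23 and 10.61 in aspirates.

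For the sealing complex, the static minus ongoing difference was 0.16 ± 0.16 for XRCC4 and 0.14 ± 0.14 for LIG4, with different values in each specimen. Without the 2 arrays of lowest correlation these were 0.090 ± 0.16 and 0.070 ± 0.13. In lymph node samples alone the differences were -0.044 ± 0.17 and -0.059 ± 0.15. In aspirates alone they were 0.54 ± 0.31 for XRCC4 and 0.52 ± 0.24 for LIG4. LIG4 was at 7.71, 8.46 and 9.43 (lowest, median, highest) in 7 static aspirates and at 7.49, 7.91 and 8.94 in 11 ongoing aspirates. XRCC4 was at 7.49, 8.38 and 8.93 against 6.70, 7.56 and 9.26. The groups overlap over most of their range for both genes.

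The interaction of status with specimen was 0.58 ± 0.28 (SE) for LIG4, with limma p = 0.044 and adjusted p = 0.546, and 0.59 ± 0.34 for XRCC4, with p = 0.086 and adjusted p = 0.602. None of the 9 genes passed after adjustment, and 1 of the 9, LIG4, was under an unadjusted 0.05, where 9.1% of all genes were. Of all genes 0.0132% passed after adjustment. Without the 2 arrays of lowest correlation the LIG4 interaction was 0.41 ± 0.29 (p = 0.163, adjusted p = 0.892); the static aspirate of that pair holds the highest LIG4 level, 9.43. Proliferation genes differed in the same direction there, with means from 11.02 to 11.41 in static aspirates and from 9.92 to 11.45 in ongoing ones, and their part in the result was not tested. The 3′ minus 5′ difference also moved with status there, at 0.59 ± 0.19 (SD) in static and 0.97 ± 0.48 in ongoing aspirates. Within aspirates it correlated at r = -0.43 with LIG4 and -0.33 with XRCC4. With it as a term over all 53 dogs the status difference was 0.12 ± 0.13 for LIG4 and 0.17 ± 0.16 for XRCC4, while its part in the interaction was not tested. Among the related genes described below, this interaction was 0.59 ± 0.20 for the resection factor gene RBBP8, 0.83 ± 0.32 for BARD1, the partner of BRCA1, and -1.15 ± 0.40 for HMCES, and none passed after adjustment.

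On the probe sets used, the remaining members differed little by status. DCLRE1C differed by 0.016 ± 0.13, with an interval of -0.24 to 0.27, and TP53BP1 by 0.040 ± 0.071, with an interval of -0.10 to 0.18. The second TP53BP1 probe set, with a mean level of 4.55, differed by 0.13 ± 0.058 (SE), given as a description. The intervals of PRKDC and ATM were -0.28 to 0.25 and -0.11 to 0.066. Differences beyond about these sizes are outside the intervals, while smaller ones could not be seen with this number of dogs.

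**Figure D2:**
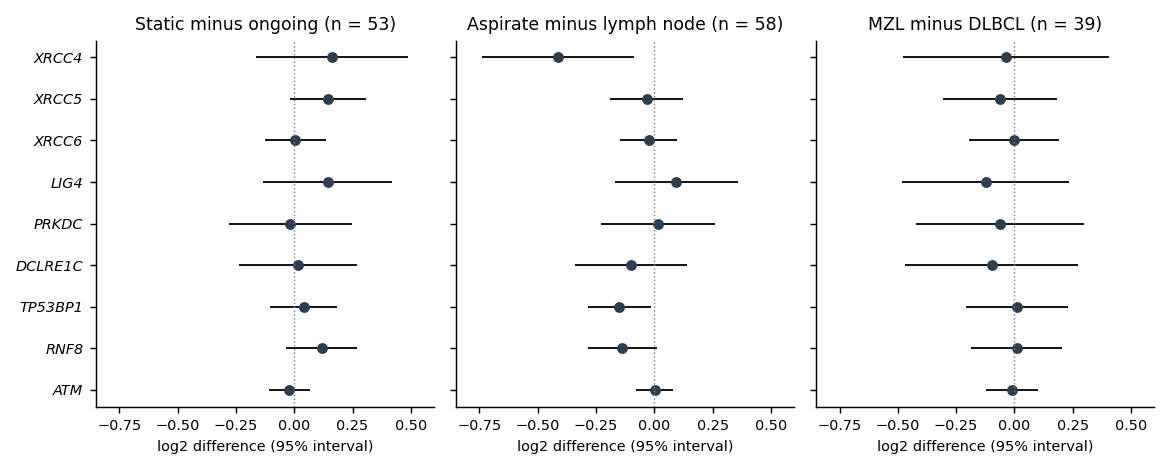
Log2 differences with 95% intervals (horizontal axes) of the 9 genes for static minus ongoing status, aspirate minus lymph node, and MZL minus DLBCL, from limma over all genes. XRCC4 and TP53BP1 have intervals below 0 in the aspirate panel, and neither passed after adjustment over all genes.

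Other genes around the pathway were read from fixed lists, and none passed after adjustment for status, specimen, diagnosis or outcome. Counts of genes higher in static dogs stand beside 47.2% of all genes and all 17 proliferation genes. Of 8 other end-joining genes, 5 were higher, with a median of 0.065, and the smallest p-values were those of PAXX, a Ku-binding factor, at -0.31 ± 0.13 and the gap-filling polymerase gene POLL at 0.11 ± 0.065. Of 12 other signalling and end-protection genes, 9 were higher, with a median of 0.078, led by RIF1, which acts with TP53BP1, at 0.32 ± 0.15 and the checkpoint kinase gene CHEK2 at 0.15 ± 0.091. Of 6 genes of resection and alternative end joining, 5 were higher, with a median of 0.12, led by the nuclease genes EXO1 at 0.43 ± 0.16 and DNA2 at 0.42 ± 0.18. Homologous recombination genes were higher in 6 of 9, with a median of 0.0096, BRCA2 at 0.26 ± 0.13 and BRCA1 at 0.10 ± 0.071. Of 8 genes that start class switching or process its first lesions, 5 were higher, with a median of 0.039, the mismatch repair gene PMS2 at -0.21 ± 0.070 and the endonuclease gene APEX2 at 0.24 ± 0.095.

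Between aspirates and lymph node samples, XRCC4 had the largest difference of the 9 genes. Its levels ran from 6.90 through 8.38 to 9.24 in 39 lymph node samples and from 6.70 through 7.87 to 9.26 in 19 aspirates. The ranges overlap almost completely while the middle of the aspirates lies lower. The aspirate minus lymph node difference was -0.41 ± 0.16 (SE; limma p = 0.0136, adjusted p = 0.289), a fold of 0.751. TP53BP1 ran from 9.11 through 9.60 to 10.12 in lymph node and from 9.17 through 9.38 to 9.96 in aspirates, a difference of -0.15 ± 0.068 (p = 0.0329, adjusted p = 0.372). Thus 2 of the 9 genes were under an unadjusted 0.05 and 0 passed after adjustment, against 11.8% and 0.119% of all genes. The second TP53BP1 probe set was at 0.024 ± 0.059 (SE), and the mean of both was at -0.063. With mean probe sets, or after quantile normalization, 1 of the 9 genes was under an unadjusted 0.05.

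RNF8 was at -0.14 ± 0.074 in the same comparison, and the other 6 lay between -0.098 (DCLRE1C) and 0.095 (LIG4). In all 6 of the 9 were lower in aspirates, against 53.1% of all genes. Diagnosis is unknown for aspirates, so specimen and diagnosis cannot be told apart; set against lymph node DLBCL alone, XRCC4 differed by -0.42. Markers of other cells also moved with the specimen. All 9 T-cell genes were higher in aspirates, 6 of them at an unadjusted p under 0.05, with list means from 7.82 to 9.85 in lymph node and from 8.14 to 10.07 in aspirates, and 3 of 4 endothelial genes were higher at that level. The 1 erythroid gene measured ran from 7.44 to 8.20 in lymph node and from 7.57 to 9.80 in aspirates (limma adjusted p = 0.0133). Their part in the XRCC4 and TP53BP1 differences was not tested. Of the related genes, 1 of 8 end-joining genes, 2 of 12 signalling genes and 0 of the 6, 9 and 8 of the remaining lists were under an unadjusted 0.05, and none passed after adjustment. These were the end-joining cofactor APLF at -0.22 ± 0.085, the shieldin subunit gene MAD2L2 at -0.32 ± 0.12 and the nuclease gene MRE11 at -0.30 ± 0.12.

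MZL and DLBCL were compared in 39 lymph node samples. The MZL minus DLBCL differences of the 9 genes lay between -0.12 (LIG4) and 0.010 (TP53BP1), and 7 of 9 were below 0, against 53.9% of all genes. None of the 9 had an unadjusted p under 0.05 with limma or the rank-sum test, where 1.16% of all genes did with limma, and 0% passed after adjustment. Mean LIG4 levels were 8.06 ± 0.32 (SD) over 7 MZL and 8.18 ± 0.45 over 32 DLBCL. With 7 MZL the interval for LIG4, -0.48 to 0.23, holds differences as large as the spread between dogs.

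Outcome was set against expression with Cox models stratified by specimen, for progression-free survival (PFS, 55 dogs, 47 events) and overall survival (OS, 56 dogs, 41 events). All 18 hazard ratios had 95% intervals that span 1, and none of the 9 genes had an unadjusted p under 0.05 for either outcome. Of all genes 2.83% were under that level for PFS and 3.99% for OS, and 0% and 0.00662% passed after adjustment. For PFS the hazard ratio per log2 unit was highest for TP53BP1 at 2.02 (0.504 to 8.12) and RNF8 at 1.74 (0.549 to 5.52), and lowest for DCLRE1C at 0.725 (0.348 to 1.51) and LIG4 at 0.747 (0.400 to 1.40). For OS it ran from 0.813 for ATM (0.0910 to 7.26) to 1.93 for XRCC6 (0.375 to 9.88). On the log scale XRCC4, which varied most, had the narrowest intervals, 0.531 to 1.77 for PFS and 0.605 to 1.80 for OS. The ATM probe set used, which varied least, had the widest. The ratios were not scaled to each gene's SD, and 1 log2 unit is wider than the whole range of that ATM probe set, 7.35 to 8.12. Of the related genes, 2 had an unadjusted p under 0.05 for OS and neither passed after adjustment: NBN, a partner of MRE11, had a score z of -2.09, toward a lower hazard at higher expression, and DNTT, the V(D)J polymerase gene, one of 1.97.

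**Figure D3:**
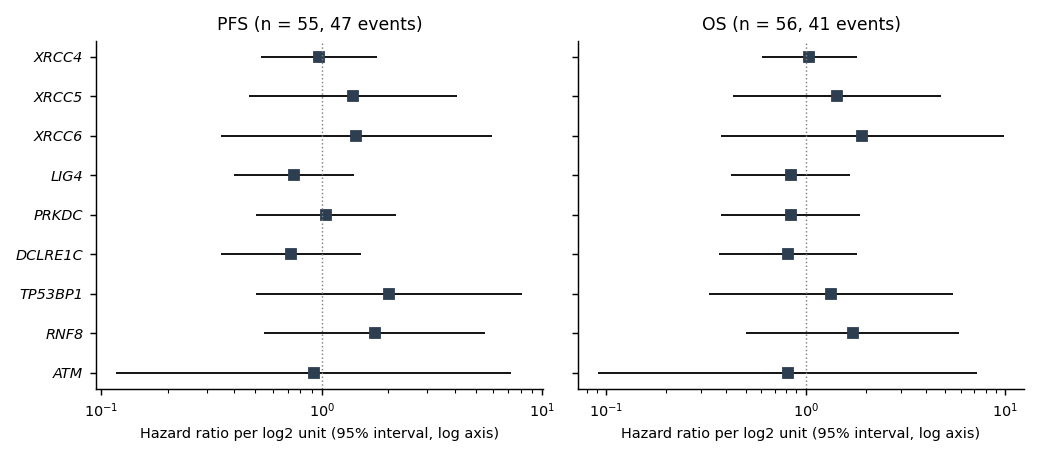
Hazard ratios per log2 unit of expression with 95% intervals (horizontal log axes) for PFS and OS, from Cox models stratified by specimen. Every interval spans 1, and those of ATM are the widest.

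Which of the 9 genes vary together between tumours was asked with correlations over the 58 dogs, after centring within specimen. On the probe sets used, the clearest grouping was of the nuclease DCLRE1C, the ligase LIG4 and the kinase PRKDC. DCLRE1C and LIG4 correlated at r = 0.59 (rho = 0.55; permutation p adjusted over 36 pairs 0.00036 for both), with r = 0.66 in lymph node and 0.49 in aspirates. Without the 2 dogs farthest from the LIG4 median r was 0.53. DCLRE1C and PRKDC correlated at r = 0.47 (adjusted permutation p = 0.00348), but at rho = 0.35 (adjusted p = 0.0583), and at r = 0.35 without the 2 farthest dogs. LIG4 and PRKDC correlated at r = 0.41 (adjusted permutation p = 0.0134), with rho = 0.31 (adjusted p = 0.100) and r = 0.31 without the 2 farthest dogs. Both PRKDC pairs therefore rest in part on dogs at the ends of the range, and neither passed by rho. They also differed by probe set: the other PRKDC probe sets gave r = 0.23, 0.32 and -0.048 with DCLRE1C. With LIG4 those probe sets gave r = 0.27, 0.28 and 0.070. Their mean levels were 6.33, 5.43 and 4.37, below every array median, against 10.17 for the probe set used, so they are a limited check.

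XRCC5 and RNF8 formed a separate pair, at r = 0.47 (adjusted permutation p = 0.00270) and rho = 0.55 (adjusted p = 0.00036). Their r was 0.39 in lymph node, 0.65 in aspirates and 0.61 without the 2 farthest dogs. With the other RNF8 probe sets, XRCC5 correlated at r = 0.40, 0.13 and 0.12. RNF8 and ATM were opposed, at r = -0.45 (adjusted permutation p = 0.00756) and rho = -0.42, and at -0.34 without the 2 farthest dogs. That relation was at r = 0.029 when the probe sets of each gene were averaged, and the probe sets of ATM are set side by side further on.

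In all, 5 of 36 pairs passed after adjustment, 13.9%, where 9.37% of all 114224055 gene pairs on the array had an r of that size or more. The median r was 0.14 over the 36 pairs and 0.017 over all gene pairs. Neither the pair of Ku subunits nor the ligase with its scaffold passed. XRCC5 and XRCC6 correlated at r = -0.021 (rho = 0.13; adjusted permutation p = 0.931), with a 95% interval of -0.28 to 0.24. The 2 dogs farthest from the XRCC5 median, a static lymph node sample and the static aspirate of low array correlation, had the highest XRCC5 levels, 10.59 and 10.31, and XRCC6 levels of 10.84 and 10.91, near its lowest. Without them r was 0.27, so this value rests on those samples. XRCC4 and LIG4 correlated at r = 0.13 (rho = 0.17; adjusted permutation p = 0.440), with an interval of -0.13 to 0.38. The other 4 XRCC6 probe sets gave r between -0.20 and 0.22 with XRCC5.

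**Figure D4:**
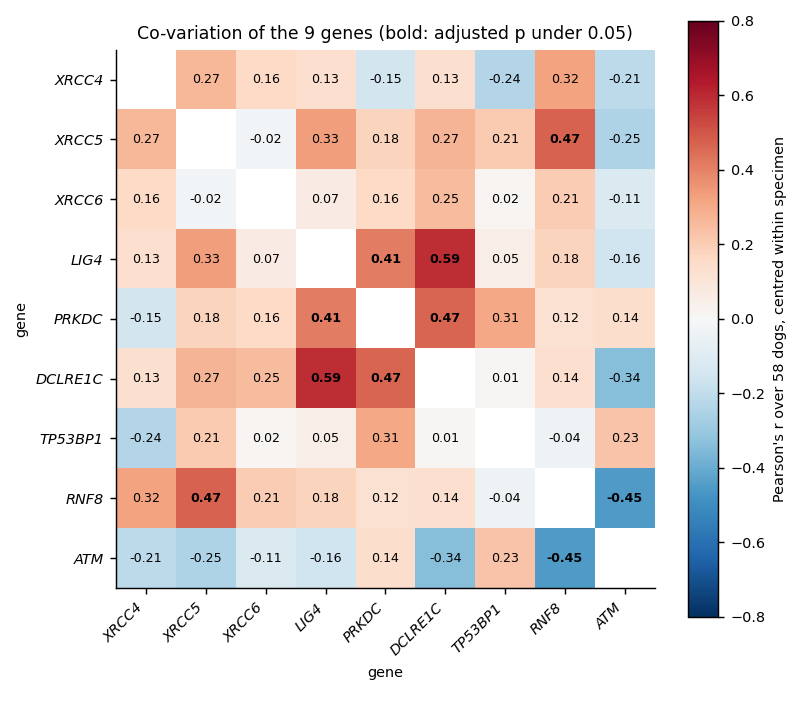
Pearson's r between the 9 genes over 58 dogs after centring within specimen, as colour and number, with pairs past the adjusted threshold in bold. LIG4, PRKDC and DCLRE1C are positive with each other, while XRCC5 with XRCC6 is at -0.02 and XRCC4 with LIG4 at 0.13.

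**Figure D5:**
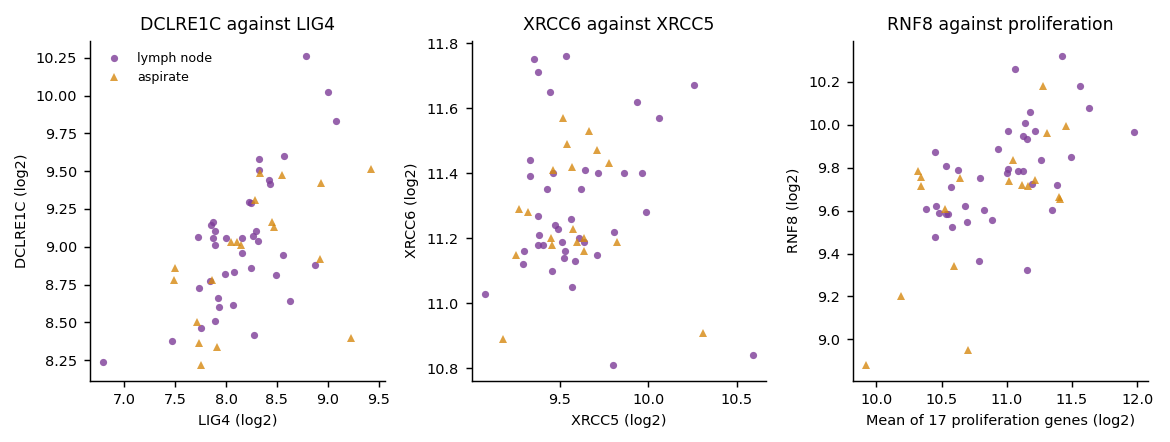
Log2 levels of DCLRE1C against LIG4, XRCC6 against XRCC5, and RNF8 against the mean of 17 proliferation genes, 1 point per dog, with lymph node samples and aspirates marked apart. The first pair has r = 0.59 and the last 0.58, while the XRCC5 panel shows 2 dogs at high XRCC5 and low XRCC6 levels.

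The 9 genes were also set against 5 cell-marker means and the 3′ minus 5′ difference, 54 relations in all, of which 7 passed by r and 9 by rho. An r of the smallest passing size or more was reached in 9.97% of relations of all genes with these measures. RNF8 rose with proliferation genes at r = 0.58 (rho = 0.55; adjusted permutation p = 0.00054 for both), with r = 0.56 in lymph node, 0.61 in aspirates and 0.53 without the 2 farthest dogs. That r was above the values of 97.6% of all genes. With the other 3 RNF8 probe sets it was 0.49, 0.12 and -0.049. PRKDC and XRCC5 fell with the macrophage mean, at r = -0.43 (rho = -0.42) and r = -0.42 (rho = -0.52), with adjusted permutation p = 0.0128 and 0.0131. DCLRE1C fell with the stroma mean at r = -0.38 (rho = -0.41; adjusted permutation p = 0.0301). Only 1.05%, 1.46% and 1.69% of all genes had a lower r with these means than PRKDC, XRCC5 and DCLRE1C.

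TP53BP1 was lower where the B-cell mean was higher, at r = -0.43 (rho = -0.50; adjusted permutation p = 0.0128), but 12.7% of all genes had a lower r with that mean, and the median over all genes was -0.10. The ATM probe set fell with the B-cell mean at r = -0.52 (rho = -0.44; adjusted permutation p = 0.00135) and with proliferation at r = -0.43 (rho = -0.48; adjusted permutation p = 0.0131), where 5.81% and 2.81% of all genes had a lower r. After removing the macrophage fit, LIG4 with DCLRE1C stood at r = 0.58, PRKDC with DCLRE1C at 0.39 and XRCC5 with RNF8 at 0.39. After removing the proliferation fit these were 0.59, 0.48 and 0.39, and after the 3′ minus 5′ fit 0.55, 0.48 and 0.48.

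The 3 genes with the highest r to each member over 58 dogs are given as a description. RNF8 was nearest to EIF4E at 0.80, PRIM2 at 0.77 and ZNF330 at 0.77, and XRCC5 to NOL11 at 0.77, ATIC at 0.75 and ELP3 at 0.75. PRKDC was nearest to ARFGEF1 at 0.76, SF3B1 at 0.74 and CCDC18 at 0.74, and DCLRE1C to UHRF2 at 0.76, ACTR2 at 0.74 and MTMR6 at 0.74. LIG4 was nearest to MATR3, GEN1 and SHOC2, each at 0.66, and XRCC6 to IK at 0.60, PPP1R8 at 0.59 and ATP6V1H at 0.57. TP53BP1 was nearest to CCDC30 at 0.63, UBR4 at 0.61 and HEATR5B at 0.61. XRCC4 had the lowest of these, with ACAD10 at 0.58, EMC2 at 0.58 and TRDMT1 at 0.54. No member was among the 3 nearest of another.

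The probe set decides what is read for some of these genes. ATM was nearest to SLC22A2 at 0.79, DHRS11 at 0.78 and PERP at 0.76, while its second probe set was nearest to POLK at 0.75, SF3B1 at 0.74 and TRRAP at 0.74, and the 2 ATM probe sets correlated at 0.067. The second had an SD of 0.38, a static minus ongoing difference of 0.20 ± 0.11, and r = 0.57 with PRKDC, 0.54 with LIG4 and 0.44 with DCLRE1C. The 2 probe sets of TP53BP1 correlated at 0.0033. The 3 other probe sets of RNF8 correlated with the one used at 0.76, 0.20 and 0.059, those of PRKDC at 0.51, 0.30 and 0.11, and the 4 of XRCC6 at 0.77, 0.69, 0.49 and 0.11. The other PRKDC probe sets and the second of TP53BP1 had mean levels below every array median, which limits them as a check. XRCC4, XRCC5, LIG4 and DCLRE1C had 1 probe set each and so no such check.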

How the data were processed

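The authors deposited log2 values for 43035 probe sets of Affymetrix canine arrays (58 arrays), and Expression Console with RMA is named as the tool, per the submitters' processing notes. RMA subtracts background, quantile-normalizes arrays and combines probes into probe sets. RNA was extracted with Trizol, per the labels' protocols. Versions, scan dates and the genome build behind the array are not given in the sources used here. Deposited values ran from 2.82 to 15.11, and arrays give no read depth, so their number limits the precision. By the platform annotation, 29254 probe sets had a single symbol, 439 several and 13167 no symbol, besides 175 controls. Each of 15115 genes was read from its probe set with the highest mean, without a filter on low levels. The closest pair of arrays correlated at 0.989.

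Models were fitted over all genes with limma 3.58.1 in R 4.3.3 (eBayes, two-sided, Benjamini-Hochberg, threshold 0.05). On simulated data in the IGHV design, 100 genes were changed by 0.5 and 100 by 1, and 82% and 95% were recovered. These are averages over genes changed together, while 0 genes passed for IGHV status in the deposited data. XRCC4, LIG4, PRKDC and DCLRE1C also had SDs above those of 80.7% to 92.6% of genes. The rates therefore do not show that a change of 0.5 in these genes would have passed, which was not tested. Outcome was tested by the Cox score test, with specimen as strata, and survival 3.8.3 gave the hazard ratios. Indicator 1 was taken as the event: in the 8 dogs with PFS indicator 0, both times were equal. The labels state no time unit. Correlations were centred within specimen and tested by 100000 two-sided permutations within specimen. Python 3.11.15 and matplotlib 3.10.9 made the figures.

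Each sample is a different dog, so p-values measure the spread between dogs. The 9 genes and all lists were chosen with earlier results of these data known. Named genes were the 9, the 2 with the smallest p of each related list per comparison (printed for IGHV status, and elsewhere in part), and the 3 nearest genes of each member. Alternatives changed the probe set rule, samples, covariates, normalization and test. The 5 dogs of ND status stayed out of the status comparison.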

Additional observations from a re-analysis of the deposited data

Results flagged for a closer look

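For each gene, the ND dogs, MZL, static aspirates and ongoing MZL were checked for a highest or lowest value far from the rest. The measure was the gap to the nearest value as a share of the range. Of 36 such checks of a gene in a group, 5 had one. A single check gives one by chance about 1 time in 20. The groups share dogs, so the checks are not independent and no excess is read from the count. The same static aspirate gave 2 of the 5: its PRKDC level was 10.85, against 10.12 in the next highest of 7, and its TP53BP1 level was 9.83, against 9.41. It was also 1 of the 2 arrays of lowest correlation with the others. Without it the group means were 9.93 for PRKDC and 9.30 for TP53BP1. XRCC5 was at 9.71 in 1 of 4 ongoing MZL, against 9.43 in the next. Among 5 dogs of ND status, XRCC6 was at 11.47 in 1, against 11.26 in the next, and PRKDC was at 10.17 in another, against 10.37 in the next lowest.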

How the results depend on the processing

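Directions of the 9 genes near 0 turned often: of the recomputed values of single genes and pairs, 334 kept their direction and side of the threshold, 69 turned and 9 pair correlations no longer passed. None of the 9 genes passed after adjustment in any comparison or alternative. For all genes, the count for IGHV status (0) became 6 in aspirates alone, and that for the interaction (2) became 1 without the 2 arrays of lowest correlation. The count for specimen (18) became 58 with mean probe sets, 37 after quantile normalization, 10 without the 2 arrays of lowest correlation, 10 without the 2 of highest 3′ minus 5′, 6 against lymph node DLBCL and 0 with the rank-sum test. For PFS (0) it became 1 with mean probe sets and 1 in lymph node alone. For OS (1) it became 2 with mean probe sets, 3 in lymph node, 2 in lymph node DLBCL, and 0 in aspirates, without stratification, or with IGHV status as a further stratum. The count of pairs (5) became 16 with mean probe sets and 2 in either specimen alone, where fewer dogs enter. The cause of the other moves was not tested.

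Static minus ongoing turned to 0.089 for ATM with mean probe sets and to -0.011 for DCLRE1C with the 3′ minus 5′ term. With the proliferation term it turned for XRCC6 (-0.039), PRKDC (0.044), DCLRE1C (-0.0095) and ATM (0.024). In lymph node DLBCL it turned for XRCC4 (-0.12), LIG4 (-0.071), PRKDC (0.0047), DCLRE1C (-0.054), RNF8 (-0.0011) and ATM (0.038), and in all lymph node samples for XRCC4 (-0.044), LIG4 (-0.059), PRKDC (0.066), DCLRE1C (-0.017) and ATM (0.017). In aspirates it turned for XRCC6 (-0.11) and TP53BP1 (-0.10). It was -0.032 for DCLRE1C without the arrays of lowest correlation, and for XRCC6 -0.0044 without those of highest 3′ minus 5′ and -0.015 after quantile normalization. The interaction turned for ATM (0.15, mean probe sets) and, without the arrays of lowest correlation, for XRCC5 (-0.12) and DCLRE1C (-0.048).

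Aspirate minus lymph node turned for ATM to -0.090 with mean probe sets, -0.00089 against DLBCL, -0.034 without the arrays of lowest correlation, -0.020 without those of highest 3′ minus 5′ and -0.017 with the proliferation term. PRKDC turned to -0.019 without the arrays of lowest correlation and -0.0075 with the proliferation term, and quantile normalization gave XRCC5 0.0013 and XRCC6 0.00042. MZL minus DLBCL turned for TP53BP1 (-0.026) and RNF8 (-0.049) with mean probe sets. In ongoing dogs it turned for XRCC4 (0.050), XRCC6 (0.041), TP53BP1 (-0.12), RNF8 (-0.071) and ATM (0.058). XRCC6 was at 0.0051 without the arrays of highest 3′ minus 5′ and 0.011 with the proliferation term, which gave TP53BP1 -0.0021.

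The PFS hazard ratio crossed 1 for PRKDC (0.852) and ATM (1.29) with mean probe sets, for PRKDC (0.923) and ATM (1.79) in lymph node, for XRCC4 (1.10) and TP53BP1 (0.861) in aspirates, and for PRKDC (0.688), RNF8 (0.785) and ATM (2.80) in lymph node DLBCL. It was 1.17 for XRCC4 without stratification, and with IGHV status as a stratum 0.867 for XRCC5, 0.820 for PRKDC and 1.09 for ATM. Without the arrays of lowest correlation it was 1.06 for ATM. The OS hazard ratio crossed 1 for ATM (1.15) in lymph node, for XRCC4 (0.949), XRCC6 (0.597) and PRKDC (1.67) in aspirates, and for XRCC4 (0.620), DCLRE1C (1.05) and TP53BP1 (0.952) in lymph node DLBCL. It was 0.794 for XRCC4 with IGHV status as a stratum, and without the arrays of lowest correlation 0.942 for XRCC4 and 1.44 for ATM. RNF8 with ATM turned to r = 0.029 with mean probe sets. No paired analysis was possible because each sample is a different dog.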
